A study of Mesocricetus auratus with 38 samples.

Results

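Golden Syrian hamsters with diet-induced fatty liver received the combination called CMA, a mixture of L-carnitine (LC), N-acetylcysteine (NAC), nicotinamide riboside (NR) and betaine, at 2 doses, and hepatic gene expression at the higher dose (Dose II) was set directly against that at the lower dose (Dose I). Of the 38 liver libraries of the series, 10 carry the treatment label HFD + MI_D2 (Dose II) and 9 carry the label HFD + MI_D1 (Dose I), and the libraries were chosen by this label alone. All 19 came from male animals with a labelled age of 22 weeks, which ate a high-fat diet (HFD) for 12 weeks and received CMA in the last 4 of them. Fat gave 23% of the calories of this diet, to which cholesterol was added. LC, NAC and NR were each given at 200 mg/kg in Dose I and at 400 mg/kg in Dose II, and betaine at 400 mg/kg in Dose I and at 800 mg/kg in Dose II. The first 3 were taken by mouth and betaine in the drinking water, and the doses come from the methods of the study, since the labels give none. A further group, of 10 libraries labelled HFD, ate the same diet with a placebo and gives the level without CMA. Control libraries from animals on chow entered no comparison, but are part of the shared estimate of the spread, of the principal components and of the mean of all libraries, and of these 9 libraries 1 that lay apart (C105) was left out. Animals are not named in the labels, each library is treated as a separate animal, and p-values measure the spread between these libraries.

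The ingredients of CMA feed connected pathways of the hepatocyte. Betaine passes a methyl group to homocysteine, which renews methionine, and is then broken down through dimethylglycine and sarcosine to glycine. NAC supplies cysteine, the limiting building block of glutathione, NR is turned into NAD+ after phosphorylation by nicotinamide riboside kinases, and LC carries long-chain fatty acids into mitochondria.

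No gene passed the test between the 2 doses. Of 14631 gene symbols in the deposited table, 9099 were expressed highly enough to be tested, and 0 of these (0%) passed the threshold of the study, a Benjamini-Hochberg adjusted p under 0.1, in edgeR's quasi-likelihood test of Dose II against Dose I. The smallest adjusted p was 0.9999, and the smallest unadjusted p was 0.000975, where a single call would have needed about 1.1e-05. At an unadjusted p under 0.05 there were 271 genes (2.98% of those tested), 139 of them lower (1.53%) and the others higher (1.45%) at Dose II. DESeq2, a second count model, also called 0 genes and placed 336 of 12976 at an unadjusted p under 0.05. In the fit that called no gene between the doses, 17 genes (0.187%) passed for Dose I against HFD and 512 genes (5.63%) for Dose II against HFD. Whether the doses differ is answered by the direct test and not by these counts, and both counts rest on the same 10 HFD libraries.

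The differences between the doses were also small. The log2 fold change (log2FC, Dose II minus Dose I) had a median of 0.003 over all tested genes, with 51% of genes above 0 and 49% below, and its size without sign had a median of 0.08. Of the genes, 95% lay between -0.36 and 0.30, and the most extreme values were -1.50 and 1.098. Only 14 genes were estimated more than 1.5-fold higher and 49 more than 1.5-fold lower at Dose II, and 3 and 8 of these were past 2-fold. None of the 9099 genes had a 95% interval that lay wholly beyond 1.5-fold.

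The intervals show how large a difference the data leave possible for a gene. For 7381 genes (81.1%) the whole 95% interval of the log2FC lay inside 1.5-fold in either direction, and for 8849 (97.3%) inside 2-fold. This depended on the level of the gene, given here as CPM (the counts of a gene per 1e+06 counts of its library, after scaling). Of the 2134 genes over 50 CPM, 95.5% had the interval inside 1.5-fold, of the 5146 genes from 5 to 50 CPM 91.8%, and of the 1819 genes under 5 CPM 34%. For genes under 5 CPM, the interval thus often could not exclude a difference of 1.5-fold. The intervals are not adjusted for the number of genes. A difference of 1.5-fold could therefore miss the adjusted threshold at higher levels too. Within a dose, single libraries had a median SD of 0.28 log2 CPM. The median size of the difference between the dose means was 0.08, where the median SE of the log2FC was 0.13. The difference exceeded 1 SD of single libraries in 237 of the 9099 genes, and in 0 of the 9099 genes (0%) did the libraries of the 2 doses lie fully apart.

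**Figure D1:**
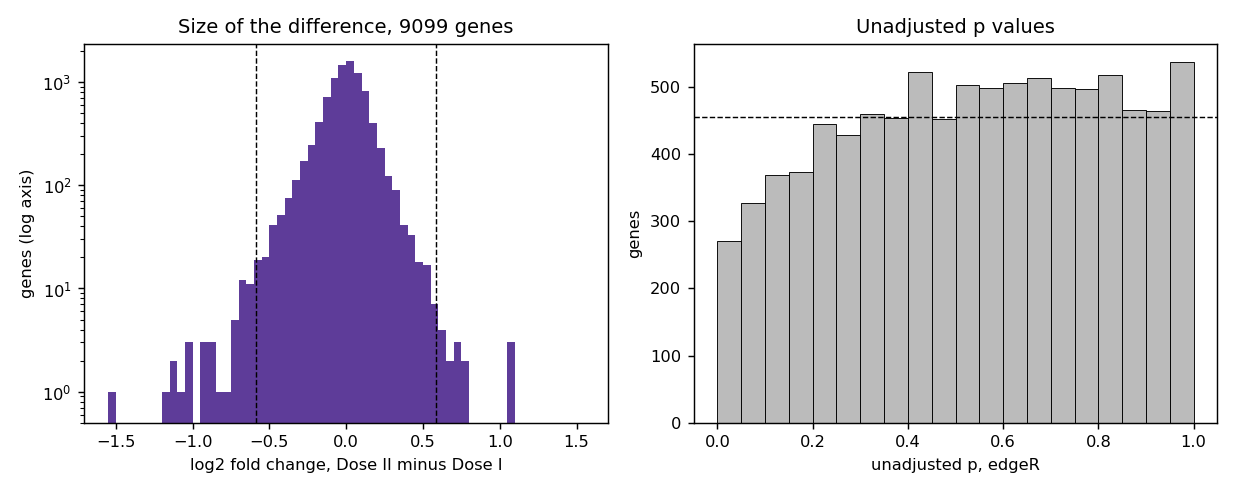
Size of the difference between Dose II (10 libraries) and Dose I (9 libraries) over 9099 tested genes. The left panel counts genes (log axis) by log2 fold change, Dose II minus Dose I, with dashed lines at 1.5-fold, past which lie 14 genes above and 49 below. The right panel counts genes by unadjusted p of edgeR, where the bin under 0.05 holds 271 genes, fewer than the dashed line that an even spread over the bins would give.

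Genes that passed for Dose II against HFD show where Dose I lay. The 307 genes (3.37%) that rose at Dose II over HFD had a median log2FC of 0.40 against HFD at Dose II and 0.25 at Dose I, and of 0.13 between the doses. The 205 genes (2.25%) that fell had medians of -0.47, -0.28 and -0.15. Because these genes were picked on the Dose II and HFD libraries, the smaller values at Dose I are partly set by that choice, and 0 of the 512 passed the direct test between the doses. Among the genes that passed at Dose I against HFD, 4 were picked after their values were seen. The values of these 4 genes at Dose I are likewise partly set by that choice, so their closeness to Dose II describes these genes only. Cyp26a1, which breaks down retinoic acid, rose by a log2FC of 2.60 at Dose I and 2.72 at Dose II against HFD, with 0.12 between the doses (95% interval -0.78 to 1.02). Sult1a1, a sulfotransferase, rose by 1.58 and 1.87, with 0.30 between the doses (-0.21 to 0.81). Fpgs, which keeps folates inside the cell by adding glutamates, rose by 0.90 and 0.92, with 0.02 between the doses (-0.41 to 0.45). Suox, the sulfite oxidase that ends cysteine breakdown, rose by 0.50 at each dose, with 0.005 between them (-0.23 to 0.24).

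The 12 genes with the smallest unadjusted p, 6 in each direction, did not pass the threshold (edgeR's quasi-likelihood test, adjusted p = 0.9999 for each), and their levels describe what the upper end of the comparison looks like. They were picked by p in these same libraries. Where their Dose II libraries lie against the Dose I median is therefore partly set by that choice. Apex1, a nuclease of base excision repair, had the smallest p. Its lowest, median and highest values were 37.4, 48.04 and 64.003 CPM in the HFD group, 45.8, 56.01 and 61.9 in the Dose I group and 56.3, 67.6 and 78.7 in the Dose II group. The log2FC between the doses was 0.30 ± 0.08 (SE; 95% interval 0.13 to 0.47), and all 10 Dose II libraries lay above the median of Dose I, although the ranges of the doses overlapped. Against HFD, Apex1 rose at Dose II (log2FC 0.49, edgeR adjusted p = 0.000743) but not past the threshold at Dose I (0.19, adjusted p = 0.489).

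The other 5 genes with higher estimates were Il34, Pradc1, Parp12, Uck1 and Nmrk1. Parp12, an antiviral ADP-ribosyltransferase, ran from 40.7 through a median of 63.9 to 94.8 CPM at Dose I and from 67.8 through 82.4 to 105.4 CPM at Dose II. Its log2FC was 0.42 ± 0.14 (SE; 0.14 to 0.70), and 10 of 10 Dose II libraries lay above the Dose I median. Il34, a cytokine that maintains macrophages, was a low gene with medians of 2.21 CPM at Dose I and 4.06 CPM at Dose II and a log2FC of 0.67 (0.24 to 1.11). Uck1, a uridine-cytidine kinase, had medians of 36.6 and 42.4 CPM and a log2FC of 0.27 (0.09 to 0.46), and Pradc1 had medians of 7.28 and 9.05 CPM and a log2FC of 0.40 (0.14 to 0.67). Nmrk1 is described with the NAD+ genes.

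Of the genes with lower estimates, 5 are described, Tmem144, Lgals8, Fbxw7, Copg2 and Mtm1. Tmem144, a membrane protein, lay at 2.20, 2.82 and 5.86 CPM (lowest, median and highest) at Dose I and at 0.68, 1.72 and 2.46 CPM at Dose II, so the ranges overlapped only between 2.20 and 2.46 CPM. Its log2FC was -0.86 ± 0.25 (SE; -1.36 to -0.36). Lgals8, a galectin that senses damaged endosomes, lay at 7.61, 10.4 and 15.2 CPM in the HFD group, 6.94, 9.53 and 11.3 at Dose I and 4.65, 5.86 and 9.22 at Dose II. The log2FC between the doses was -0.45 (-0.74 to -0.16), and against HFD Lgals8 fell at Dose II (log2FC -0.73, edgeR adjusted p = 0.0027) but not past the threshold at Dose I (-0.27, adjusted p = 0.55). Fbxw7, a ubiquitin ligase subunit, Copg2, a subunit of the vesicle coat, and Mtm1, a lipid phosphatase, had log2FCs of -0.42, -0.23 and -0.38. In Tmem144, Lgals8, Fbxw7 and Mtm1, all 10 Dose II libraries lay below the Dose I median, and in Copg2 9 of 10 did, which partly follows from the choice of these genes by p.

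**Figure D2:**
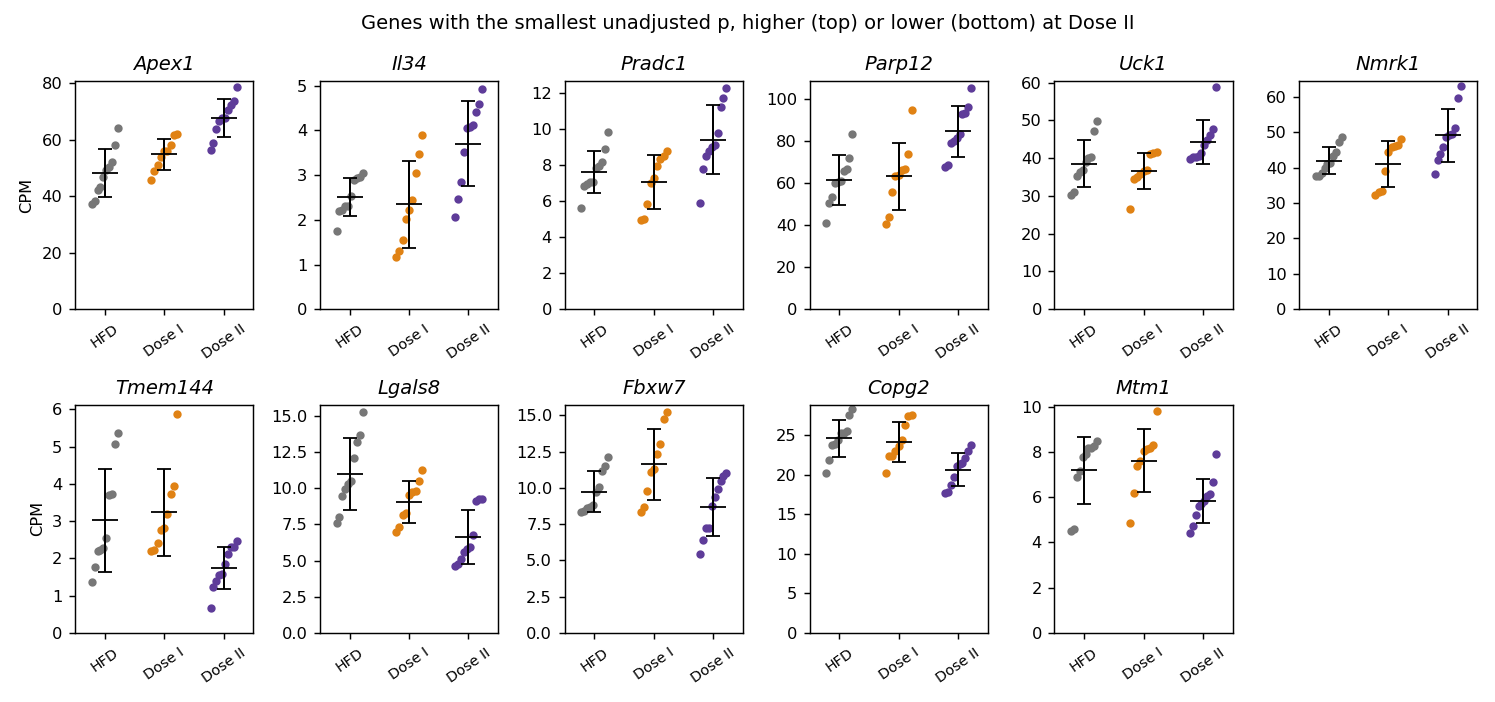
CPM in each HFD (10), Dose I (9) and Dose II (10) library for 11 of the 12 genes with the smallest unadjusted p, 6 higher (top row) and 5 lower (bottom row) at Dose II, with the mean and SD as a bar with caps. In every panel the points of the 2 doses overlap, as in Apex1, where Dose I reaches 61.9 CPM and Dose II begins at 56.3 CPM.

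Genes that handle the ingredients of CMA were counted by list. The same over all tested genes is given here, of which 51% lay above 0 with a median log2FC of 0.003 and of which 0 passed the threshold. At an unadjusted p under 0.05, 1.45% of all tested genes were higher and 1.53% lower at Dose II. The genes of a list were read in the same libraries and are not independent of one another. The 12 tested genes of betaine, choline and sarcosine breakdown had 8 estimates above 0 and 4 below, and a median of 0.06. Of these 12 genes, 2 had an unadjusted p under 0.05, Gnmt and Dmgdh, both higher at Dose II. Gnmt, which uses S-adenosylmethionine to turn glycine into sarcosine, lay at 673, 1254 and 1671 CPM (lowest, median and highest) in the HFD group, at 1015, 1957 and 3296 CPM at Dose I and at 1719, 2736 and 3620 CPM at Dose II. Its medians thus ran from HFD through Dose I to Dose II, with wide overlap between the doses. Gnmt rose against HFD at Dose I (log2FC 0.81, edgeR adjusted p = 0.0924) and at Dose II (1.25, adjusted p = 0.00016), and the log2FC between the doses was 0.44 ± 0.19 (SE; 0.06 to 0.82; unadjusted p = 0.0254 in edgeR).

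Dmgdh, which takes a methyl group off dimethylglycine, lay at 209, 289 and 343 CPM in the HFD group, at 311, 417 and 510 CPM at Dose I and at 410, 495 and 562 CPM at Dose II. It too rose against HFD at both doses (log2FC 0.55 and 0.75, edgeR adjusted p = 0.00168 and 7.49e-07), with 0.20 ± 0.09 between the doses (SE; 0.03 to 0.38). The next enzyme of the path, Sardh, had medians of 509, 562 and 655 CPM in the same order of groups and a log2FC of 0.16 (-0.06 to 0.37) between the doses. Bhmt2, a methyltransferase related to the betaine enzyme and named here after its value was seen, had medians of 252, 389 and 401 CPM and a log2FC of 0.16 (-0.11 to 0.43). Bhmt itself is not analysed here.

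In the methionine cycle and transsulfuration, 11 of 16 tested genes lay above 0 (median 0.04) and 0 had an unadjusted p under 0.05 (2.98% of all tested genes). Mat1a, which makes S-adenosylmethionine in the liver, had a log2FC of 0.17 (-0.03 to 0.36) between the doses. Cbs and Cth, the 2 enzymes that turn homocysteine into cysteine, had log2FCs of 0.13 (-0.09 to 0.34) and 0.07 (-0.21 to 0.35), after 0.40 and 0.58 for Dose II against HFD. Of 20 tested genes of the folate cycle, serine and glycine, 14 lay above 0 (median 0.05). Phgdh, the first enzyme of serine synthesis, was the 1 gene of this list at an unadjusted p under 0.05 (2.98% of all tested genes). It lay at 1.19, 4.44 and 10.9 CPM at Dose I and at 1.24, 2.96 and 4.73 CPM at Dose II, with a log2FC of -0.77 (-1.43 to -0.11). The mitochondrial Shmt2 had a log2FC of 0.12 (-0.17 to 0.40), which was 0.229 without DI126, and Mthfd1 had 0.05 (-0.12 to 0.21).

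NAC supplies cysteine, and the next 3 lists cover cysteine breakdown, glutathione and other antioxidant enzymes. Whether NAC acts on any of these genes was not tested. Cysteine breakdown and sulfur oxidation had 7 of 12 genes above 0 (median 0.01), with Cdo1, the first enzyme of cysteine oxidation, at 0.05 (-0.07 to 0.18). Csad, picked as the smallest p of this list, had its lowest log2FC, -0.26 (-0.52 to 0.01). Glutathione synthesis and use had 16 of 25 above 0 (median 0.05). Gclc, which sets the rate of glutathione synthesis, had medians of 187.5, 209.4 and 197.8 CPM in HFD, Dose I and Dose II and a log2FC of -0.12 (-0.43 to 0.20) between the doses, and Gss, the second enzyme, had 0.12 (-0.18 to 0.41). Gpx4, the peroxidase that removes lipid peroxides, had medians of 324, 361 and 414 CPM and a log2FC of 0.14 (-0.02 to 0.30). Among peroxiredoxins, thioredoxins and other antioxidant enzymes, 17 of 25 lay above 0 (median 0.04). The 1 gene at an unadjusted p under 0.05 (2.98% of all tested genes) was Nqo1, a quinone reductase. Nqo1 ran from 96.7 through 138.1 to 195.6 CPM at Dose I and from 78.3 through 123.1 to 145.9 CPM at Dose II (log2FC -0.28, -0.51 to -0.06).

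For NR, the NAD+ list had 13 of 24 genes above 0 (median 0.02). Of these 24 genes, 2 had an unadjusted p under 0.05, Nmrk1 among them, both higher at Dose II (1.45% of all tested genes). Nmrk1, the kinase that phosphorylates NR, was among the 6 genes with the smallest p of all those with higher estimates. It lay at 37.7, 41.1 and 48.6 CPM in the HFD group, at 32.2, 44.3 and 47.99 CPM at Dose I and at 38.1, 48.9 and 62.95 CPM at Dose II, so that 7 of 10 Dose II libraries lay above the Dose I median and 3 below. The log2FC was 0.26 ± 0.09 (SE; 0.08 to 0.44; unadjusted p = 0.00475 in edgeR), and neither dose passed the threshold against HFD (-0.03 and 0.23, edgeR adjusted p = 0.941 and 0.132). Nampt, which starts the salvage of nicotinamide, had medians of 115.05, 117.2 and 118.7 CPM and a log2FC of -0.002 between the doses, with an interval of -0.17 to 0.17. Of 12 tested genes from tryptophan to kynurenine, the other source of NAD+, 8 lay above 0 (median 0.04), while Tdo2, its first enzyme, had -0.14 (-0.52 to 0.25).

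The carnitine list had 8 of 10 genes above 0 (median 0.07). Slc22a4, a carrier of the carnitine transporter family, was picked as the smallest p of this list and had its highest log2FC, 0.50 (-0.02 to 1.02). Slc22a4 lay at 1.02, 1.70 and 3.19 CPM at Dose I and at 1.36, 2.52 and 4.04 CPM at Dose II. Cpt1a, which commits fatty acids to mitochondrial oxidation, had medians of 186.5, 151.9 and 149.6 CPM in HFD, Dose I and Dose II and a log2FC of 0.17 (-0.17 to 0.51) between the doses. Aldh9a1, an enzyme of carnitine synthesis, had 0.06 (-0.08 to 0.20).

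Of a list of 38 genes of one-carbon, antioxidant, fatty acid and amino acid metabolism taken from those the study names, 36 lay above 0, with a median log2FC of 0.09. Apart from Cpt1a, Dgat1 and Dgat2, these genes were chosen on the Dose II and HFD libraries. In the present fit, 29 of the 38 rose against HFD at Dose II (where 3.37% of all genes rose) and 2 at Dose I (where 0.154% of all genes rose). The direction of these genes between the doses is therefore not independent evidence. The 2 genes below 0 were Tdo2 and Dgat1. Past Gnmt and Dmgdh, no gene of the 38 had an interval that excluded 0. Among the amino acid enzymes, Gpt2, a mitochondrial alanine transaminase, had 0.11 (-0.31 to 0.52) after 0.83 and 0.94 against HFD at Dose I and Dose II. With 1 library left out it ran from 0.020 (without DI120) to 0.263 (without DI126). Cps1, which opens the urea cycle, had 0.03 (-0.22 to 0.28) after 0.42 and 0.45. Idh2, the mitochondrial NADP+-dependent isocitrate dehydrogenase, had 0.15 (-0.005 to 0.31) after 0.21 and 0.36.

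**Figure D3:**
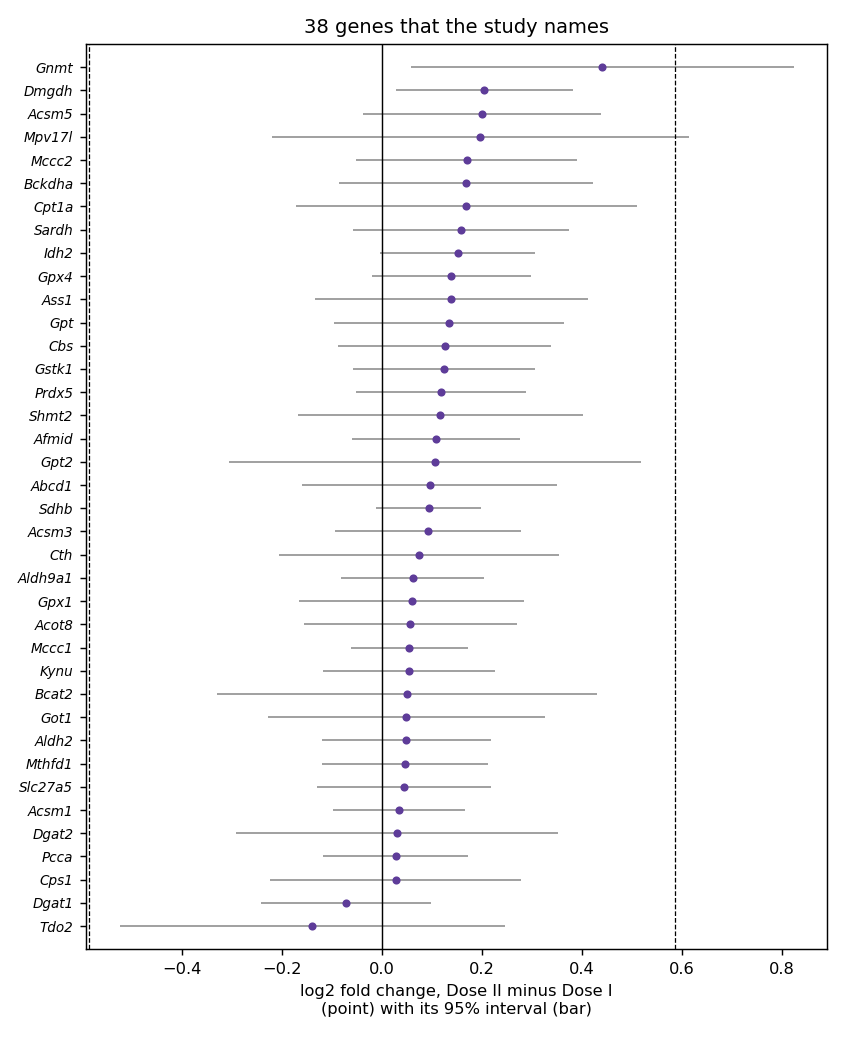
Log2 fold change, Dose II minus Dose I, of 38 genes that the study names (points) with 95% intervals (lines) and dashed lines at 1.5-fold. The points of 36 genes lie right of 0, all but Gnmt and Dmgdh have an interval that crosses 0, and of these 2 intervals that of Gnmt runs from 0.06 to 0.82.

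The list with the median farthest from 0 was cholesterol synthesis and uptake. Of its 23 tested genes, 21 had estimates below 0 and 2 above, and the median log2FC was -0.25 against 0.003 over all tested genes. An unadjusted p under 0.05 was reached by 5 genes, all lower at Dose II (1.53% of all tested genes), but 0 passed the threshold. Msmo1, a sterol oxidase late in the pathway, had the smallest p of the list. It lay at 10.2, 13.99 and 21.8 CPM in the HFD group, at 8.52, 16.3 and 22.7 CPM at Dose I and at 8.58, 11.3 and 16.7 CPM at Dose II, with a log2FC of -0.50 ± 0.18 (SE; -0.86 to -0.14; unadjusted p = 0.00792 in edgeR). Nsdhl, Idi1 and Dhcr7, 3 enzymes of the pathway that were also at an unadjusted p under 0.05 and are named after their values were seen, had log2FCs of -0.30, -0.48 and -0.34.

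Insig1, which holds the sterol sensor in the endoplasmic reticulum and was counted with fatty acid synthesis, varied widely within each dose. Its values were 60.7, 467 and 1052 CPM at Dose I and 81.2, 219 and 478 CPM at Dose II, and the log2FC was -0.93 (-1.70 to -0.15). Insig1 was picked as the smallest p of the fatty acid synthesis list and did not pass the threshold. Fdft1, squalene synthase, named after its value was seen, had -0.001 (-0.28 to 0.28).

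Per library, the mean log2 level of the 23 cholesterol genes, set relative to the mean of the HFD group, was 0.03 ± 0.26 (SD, n = 9) at Dose I and -0.19 ± 0.15 (SD, n = 10) at Dose II. Dose I libraries spread from -0.33 to 0.38, with DI121, DI123, DI125 and DI126 as the 4 above 0.1. At Dose II, 9 libraries lay between -0.36 and -0.10 and 1 library, DII137, at 0.17. The other 5 Dose I libraries lay below 0, and the ranges of the doses overlapped. Leaving out DI123 moved the median log2FC of the list to -0.18, and leaving out DII138 moved it to -0.29. With limma-trend on log2(TPM + 1) the median was -0.15, with 20 of the 23 genes below 0. The 23 genes were read in the same libraries and are not independent of one another.

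**Figure D4:**
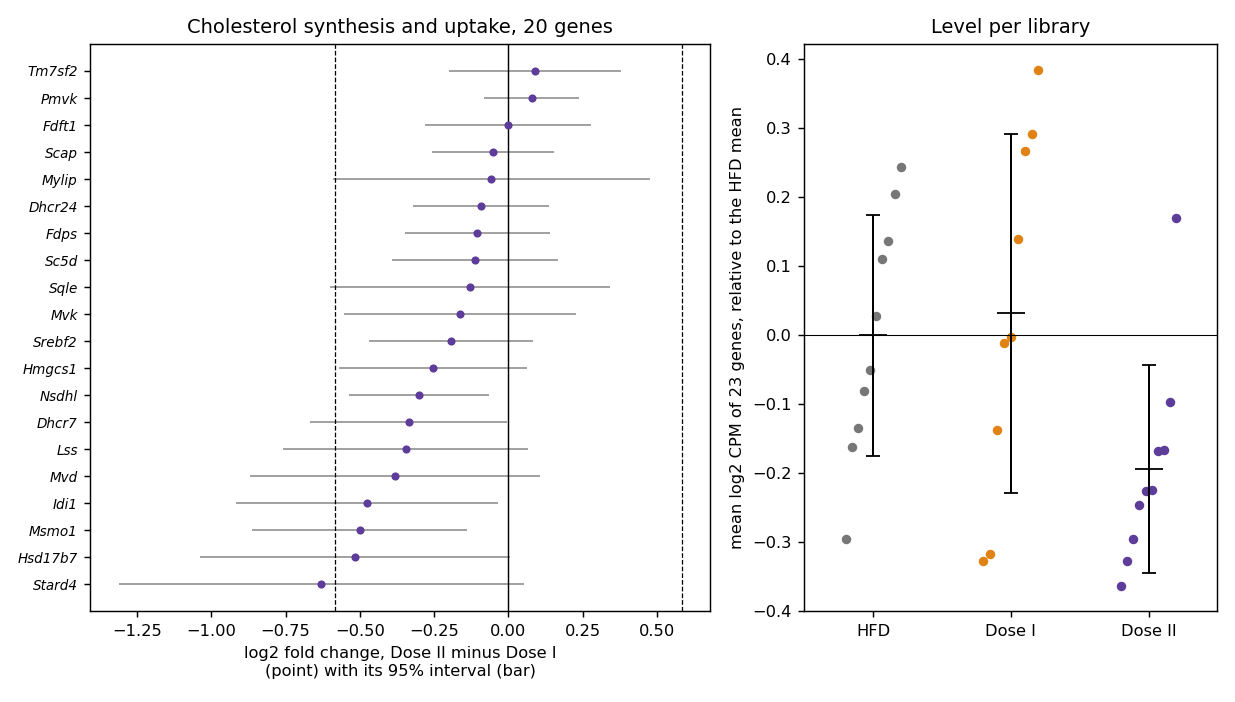
Cholesterol synthesis and uptake. The left panel gives the log2 fold change, Dose II minus Dose I, of 20 of the 23 genes with 95% intervals and dashed lines at 1.5-fold, with 18 points left of 0. The right panel gives the mean log2 CPM of all 23 genes in each HFD, Dose I and Dose II library relative to the HFD mean, with mean and SD bars, where Dose I spreads from -0.33 to 0.38 and Dose II has 1 library, at 0.17, above 0.

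Other lipid lists stayed closer to 0. Fatty acid and triacylglycerol synthesis had 19 of 28 genes below 0 (median -0.05), with Acaca, the first committed enzyme, at -0.06 (-0.64 to 0.52). Lipid droplets and fatty acid uptake had 11 of 19 below 0 (median -0.03), bile acid synthesis and transport 12 of 22 below 0 (median -0.06), and lipoproteins 17 of 24 above 0 (median 0.03). Cyp7a1, the rate-limiting enzyme of bile acid synthesis, lay at 3.64, 12.4 and 36.3 CPM at Dose I and at 2.18, 6.30 and 45.4 CPM at Dose II. Its log2FC of -0.25 had an interval from -1.08 to 0.58. Akr1d1, a reductase of the same path, had -0.30 (-0.60 to -0.01) and did not pass the threshold (edgeR adjusted p = 0.9999). It was picked as the 1 gene of the bile acid list at an unadjusted p under 0.05 (2.98% of all tested genes). Fasn is not analysed here.

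Nuclear genes of mitochondria and peroxisomes had mostly small positive estimates, and 0 passed the threshold. Those of oxidative phosphorylation lay above 0 in 56 of 58 cases, with a median log2FC of 0.06. This count was 47 without DII131 and 58 without DI124. Per library, the mean log2 level of this list relative to HFD was 0.09 ± 0.10 at Dose I (SD, n = 9; from -0.10 to 0.24). At Dose II it was 0.16 ± 0.13 (SD, n = 10; from -0.12 to 0.30), so the ranges overlapped. The smallest p of the list was that of Cox7c, a subunit of cytochrome c oxidase, which lay at 89.3, 109.2 and 138.9 CPM at Dose I and at 91.3, 130.3 and 151.2 CPM at Dose II (log2FC 0.20, -0.003 to 0.40). Mitochondrial fatty acid oxidation had 21 of 27 genes above 0 (median 0.05), the peroxisome 25 of 33 (median 0.05) and the TCA cycle with pyruvate 21 of 29 (median 0.04). Transcripts of the mitochondrial DNA itself had 10 of 13 genes below 0 (median -0.04). Sdhb, a subunit of succinate dehydrogenase, had 0.09 (-0.01 to 0.20).

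A trend with transcript length moved with these counts. Genes of the cytosolic ribosome, which are short, lay above 0 in 20 of 20 cases (median 0.09), and long transcripts of widely expressed genes lay below 0 in 27 of 32 (median -0.07, or -0.12 without DII133 and -0.04 with limma-trend on log2(TPM + 1)). Of 53 listed ribosome genes, only 20 were among the deposited gene symbols. Their mean log2 level per library relative to HFD was 0.10 ± 0.13 at Dose I (SD, n = 9; from -0.09 to 0.31). At Dose II it was 0.17 ± 0.15 (SD, n = 10; from -0.16 to 0.33). Across genes within a library, Spearman's rho between gene length and the level relative to the mean of all libraries was -0.06 ± 0.13 (SD, n = 9) at Dose I and -0.12 ± 0.12 (SD, n = 10) at Dose II, and these means did not differ past the threshold (two-sided exact permutation test, p = 0.297, adjusted 0.726 over 7 library values). With the length trend of each library removed, the ribosome had 15 of 20 genes above 0 (median 0.04), oxidative phosphorylation 42 of 58 (median 0.03) and long transcripts 17 of 32 below 0 (median -0.01). Cholesterol synthesis still had 21 of 23 below 0 (median -0.22), and 36 of the 38 genes named by the study stayed above 0. The trend was fitted on these same libraries, so removing it shrinks any difference that genes of similar length share, whatever its source. The source of the length trend was not tested.

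Amino acid lists lay slightly above 0. Branched-chain amino acid breakdown had 20 of 26 genes above 0 (median 0.03), the urea cycle with arginine, proline and transaminases 18 of 31 (median 0.03), and lysine, tyrosine and histidine breakdown 15 of 19 (median 0.06). Mmaa, a cobalamin protein of propionate breakdown, had medians of 113.8, 124.4 and 139.6 CPM in HFD, Dose I and Dose II and a log2FC of 0.14 (0.02 to 0.25) between the doses. Prodh, which starts proline breakdown, had medians of 132.4, 163 and 180 CPM and 0.16 (0.01 to 0.31). Both rose against HFD at Dose II (edgeR adjusted p = 0.00671 and 0.000514). Mmaa and Prodh had the smallest p of their lists and did not pass between the doses (edgeR adjusted p = 0.9999 for each). Their intervals are partly set by that choice. At an unadjusted p under 0.05, 1 of the 26 and 2 of the 31 genes were higher (1.45% of all tested genes).

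In the remaining metabolic and regulatory lists the median lay within 0.06 of 0. Glycolysis, gluconeogenesis and glycogen had 14 of 26 genes below 0 (median -0.01), with Pck1, the rate-limiting enzyme of gluconeogenesis, at 0.05 (-0.42 to 0.52). Lysosomal genes lay above 0 in 30 of 50 cases (median 0.02), drug-metabolizing enzymes in 20 of 36 (median 0.01) and nuclear receptors and coregulators in 16 of 27 (median 0.02). Amino acid and ER stress genes lay below 0 in 16 of 27 cases (median -0.01), circadian clock genes in 9 of 17 (median -0.04), insulin, AMPK and growth signalling genes in 17 of 27 (median -0.05) and interferon response genes in 10 of 19 (median -0.002). Acute phase, complement and coagulation genes lay below 0 in 19 of 28 cases (median -0.02). Crp, an acute phase protein, was the 1 gene of this list at an unadjusted p under 0.05 (2.98% of all tested genes) and did not pass the threshold. It lay at 154, 292 and 723 CPM at Dose I and at 173, 246 and 351 CPM at Dose II (log2FC -0.44, -0.82 to -0.07). Without DI123 its log2FC was -0.225.

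**Figure D5:**
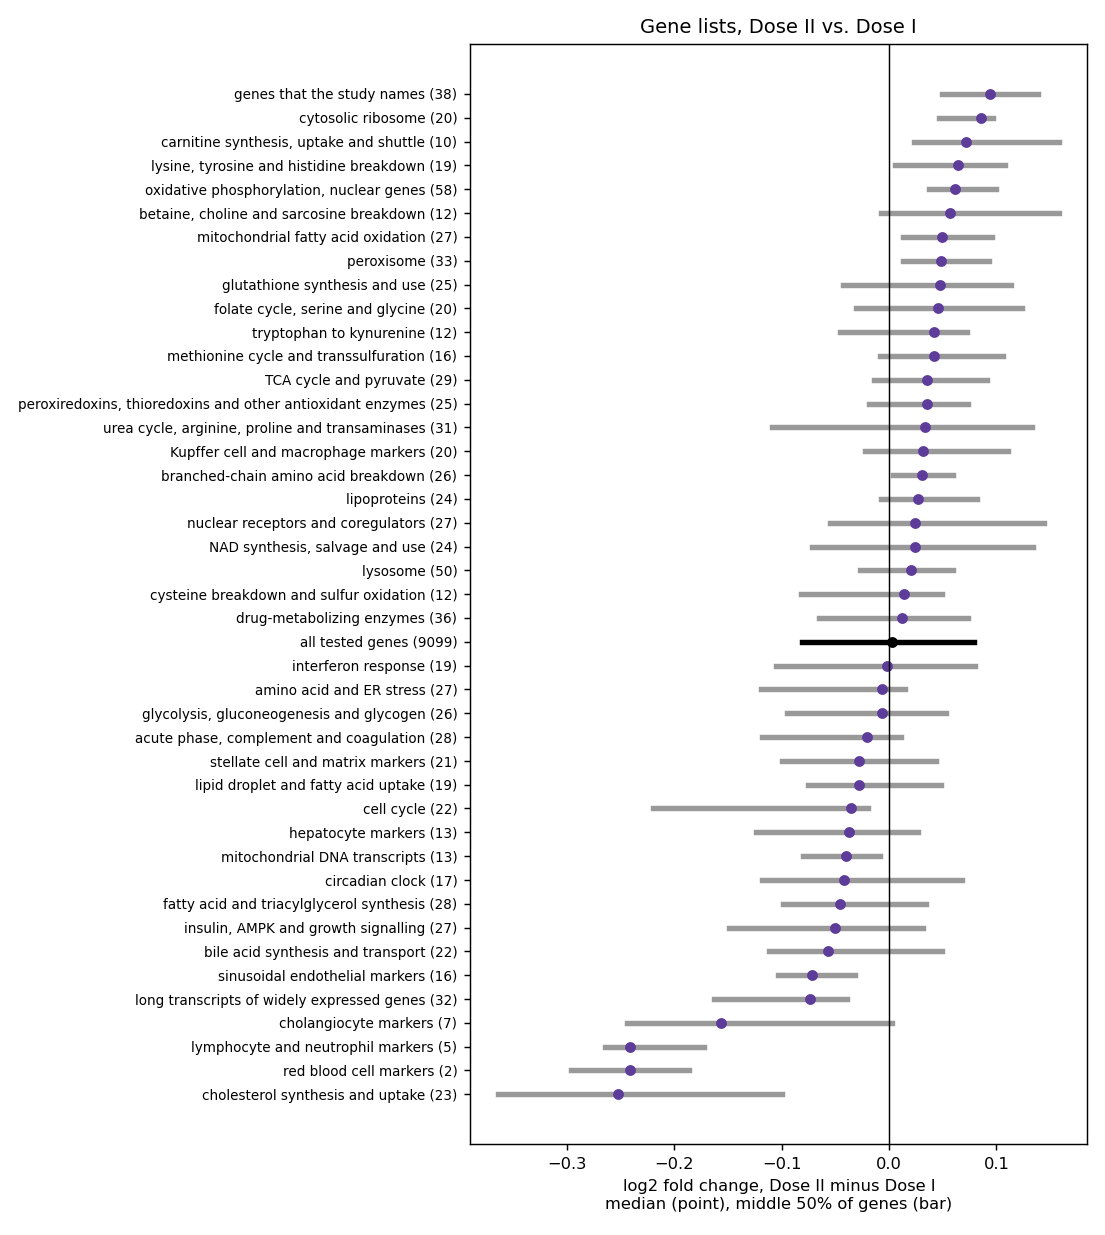
Median log2 fold change, Dose II minus Dose I (points), and the middle 50% of genes (bars) for 42 gene lists and for all 9099 tested genes (black), with the number of tested genes in brackets. The bar of cholesterol synthesis and uptake, with its median at -0.25, lies below 0, and the medians of all but 4 lists lie within 0.1 of 0.

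Markers of liver cell types showed no gene past the threshold either. In bulk tissue, fewer cells of a type cannot be told apart from less RNA per cell. Hepatocyte markers lay below 0 in 9 of 13 cases (median -0.04), and Alb, serum albumin, took 13.3% ± 1.19 of all counts at Dose I (SD, n = 9) and 13.1% ± 1.32 at Dose II (SD, n = 10; two-sided exact permutation test, p = 0.693, adjusted 0.828). Kupffer cell and macrophage markers lay above 0 in 12 of 20 cases (median 0.03). Their mean log2 level relative to HFD was -0.38 ± 0.33 at Dose I (SD, n = 9; from -0.62 to 0.26) and -0.36 ± 0.22 at Dose II (SD, n = 10; from -0.76 to -0.01). Sinusoidal endothelial markers lay below 0 in 13 of 16 cases (median -0.07). Lyve1, a hyaluronan receptor picked as the smallest p of these markers, had the lowest log2FC among them, -0.32 (-0.67 to 0.02). Stellate cell and matrix markers lay below 0 in 12 of 21 cases (median -0.03), cholangiocyte markers in 5 of 7 (median -0.16), lymphocyte and neutrophil markers in 4 of 5 (median -0.24), red blood cell markers in 2 of 2 (median -0.24) and cell cycle genes in 18 of 22 (median -0.04). Of these markers, Epb42, of red blood cells, was the only one listed at 0 in all 19 libraries.

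None of 7 values per library differed between the doses past the threshold of 0.05. On the first principal component (PC1, 26.9% of the variation of 500 genes over 37 libraries), Dose I scored 5.47 ± 3.59 (SD, n = 9) and Dose II 7.69 ± 3.08 (SD, n = 10), and on the second the scores were 1.89 ± 9.04 and 1.89 ± 7.47. Two-sided exact permutation tests over 92378 regroupings gave p = 0.163 for PC1 and p = 0.999 for PC2 (adjusted 0.726 and 0.999). Total estimated counts were 4.67e+06 to 6.40e+06 at Dose I and 4.74e+06 to 8.42e+06 at Dose II, and they did not differ past the threshold (exact permutation test, p = 0.311, adjusted 0.726). The shares of mitochondrial DNA genes and of the 50 highest genes did not either (exact permutation tests, p = 0.710 and 0.433, adjusted 0.828 and 0.758). No pair of libraries within a group was alike enough to be a single library deposited in duplicate.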

How the data were processed

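Liver RNA was sequenced by the authors, who quantified reads with kallisto on MesAur1.0 (Ensembl release 101) and deposited estimated counts and TPM (counts per transcript length and total) per gene symbol. Near-identical genes can trade estimated counts. Libraries were named by group (C, H, DI, DII) and label number, and groups came from the treatment labels.

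Estimated counts were rounded, filtered with filterByExpr and scaled by TMM. The quasi-likelihood F test of edgeR 4.0.16 (R 4.3.3) was run on 37 libraries with 1 term for each group, with Benjamini-Hochberg adjustment and a threshold of 0.1. C105 was left out because its PC1 score over 38 libraries, 19.2, lay apart from the others (-23.1 to 12.3) and the study left out 1 control. The SE is the size of the log2FC divided by the square root of F. CPM are TMM-scaled. Length is the ratio of estimated counts to TPM.

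Named genes are the 6 smallest p in each direction with a mean of at least 1 CPM, the member of each of 42 lists with the smallest p, 38 genes that the study names and fixed enzymes. A few of these genes are left unreported here. The members and lists were chosen with earlier results of these data known. Lists were counted, without a set test. Alternatives used DESeq2 1.42.0, limma 3.58.1 on log2(TPM + 1) and log2(TPM + 0.1), other libraries, scaling and filters, and each library of the doses left out in turn. The scripts were tested on simulated data.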

Additional observations from a re-analysis of the deposited data

Results flagged for a closer look

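Among values of the named genes and list levels, 1 library stood apart from the others of its dose in 17 of 206 sets (8.25%). The limit used was a gap over 0.493 of the range for 9 libraries and 0.466 for 10. For normally distributed values this limit is passed by chance in about 1 of 20 sets. Gene values were CPM without a log, so the share found cannot be set against this rate. The values that stood apart are single libraries, and their part in the comparison of the doses was not tested beyond leaving each library out.

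At Dose I, DI126 had 4 such values, with Dgat2 at 1988 CPM (the others from 892 to 1374), Nampt at 152 CPM (97.0 to 122.3), Shmt2 at 274 CPM (122.6 to 191) and Uck1 low at 26.6 CPM (34.5 to 41.7). DI123 had 3, with the fibrinogen gene Fgg at 10704 CPM (2479 to 6534), Tmem144 at 5.86 CPM (2.20 to 3.95) and Xbp1 at 55.8 CPM (34.4 to 44.4). In DI127 the transaminase gene Got1 stood at 568.1 CPM (220 to 281), and in DI125 the mitochondrial gene ND6 stood at 33.8 CPM (17.6 to 24.6).

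At Dose II, DII131 had 2 such values, with Cyp7a1 at 45.4 CPM (2.18 to 20.3) and Uck1 at 58.8 CPM (39.8 to 47.7). In DII129, Alas2 stood at 5.84 CPM (1.33 to 3.49) and Fabp5 at 88.7 CPM (10.3 to 46.7). In DII133, the mean log2 level of the cytosolic ribosome relative to HFD was low at -0.16 (0.08 to 0.33), as was Rpl30 at 212 CPM (264 to 291). Cps1 in DII135 stood at 8399 CPM (4391 to 6346). The mean log2 level of cholesterol synthesis and uptake in DII137 stood at 0.17 relative to HFD (-0.36 to -0.10).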

How the results depend on the processing

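No gene passed the threshold between the doses in any of the 10 other settings with their own fit, at a threshold of 0.05 or with any of the 19 libraries left out, and unadjusted p under 0.05 was reached by 200 to 336 genes in these settings, except for 491 with no filter, and by 227 to 370 with 1 library left out. The median log2FC of each of the 42 lists moved by less than 1 SD between the libraries of a dose in all 420 and 798 alternative values. Leaving out 1 library can hardly move a median that far. Some medians are also smaller than this SD, as for glycolysis, gluconeogenesis and glycogen (median -0.007, SD 0.107 at Dose I and 0.130 at Dose II). These counts therefore cannot show that a median is stable. The counts of genes over 1.5-fold, 14 higher and 49 lower, depended on the filter and on the libraries fitted. They were 854 and 832 with no filter, 7 and 32 with the 19 libraries of the doses alone, 1 and 5 with at least 10 counts in every library, and 12 to 29 higher with 1 library left out (12 without DII131, 29 without DI120 or DI122). The PC1 difference of 2.22 became -0.554 (exact permutation test, p = 0.893) in a PCA of the 19 libraries alone, whose axis is another one. Of the 94 named genes, 13 changed sign somewhere, none with an unadjusted p under 0.527. Acaca was at 0.040 with the length trend removed, and Nampt at 0.0062 with no filter and 0.012 with the length trend removed. With 1 library left out, the log2FC ran from -0.20 to 0.00059 for Gclc, -0.22 to 0.079 for Tdo2, -0.77 to 0.078 for Cyp7a1, -0.00086 to 0.10 for Gpx1, -0.0018 to 0.080 for Slc27a5, -0.0023 to 0.051 for Pcca, -0.025 to 0.26 for Got1, -0.063 to 0.16 for Bcat2, -0.048 to 0.11 for Cps1, -0.21 to 0.11 for Acaca, -0.068 to 0.18 for Pck1, -0.069 to 0.15 for Dgat2 and -0.037 to 0.052 for Nampt. Of the 94 genes, 48 moved by over 1.5 times with some library left out, of which 1, Crp, had an unadjusted p under 0.05. With 1 library left out, the median ran from -0.29 to -0.18 for the cholesterol list, 0.04 to 0.09 for oxidative phosphorylation and -0.12 to -0.05 for long transcripts. In the other settings the cholesterol median came closest to 0 with limma-trend, at -0.15 on log2(TPM + 1) and -0.19 on log2(TPM + 0.1). No paired analysis was possible because the groups share no replicate number. The median SE of the log2FC was largest for genes under 5 CPM.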
